A study of Mus musculus with 22 samples.

Results

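A set of 10 genes that mark hepatic stellate cells were followed across the livers of 22 mice. They are Cygb, Hgf, Pdgfrb, Tagln, Acta2, Des, Rgs5, Lrat, Reln and Hand2, and they were picked by gene symbol, as markers of quiescent and activated stellate cells. Each of the 10 stood on exactly 1 row of the array table out of 24011 genes tested. The rule that names them uses no measured level, although the set was put together with earlier results of these data known.

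Stellate cells lie between the sinusoidal endothelium and the hepatocytes and store retinoids as esters in lipid droplets. In injured liver they lose these stores, divide and become contractile myofibroblasts that lay down collagen. Activated cells carry smooth muscle actin and related contractile proteins and divide in response to PDGF. Several of the markers are shared with other cells of the vessel wall or the portal tract.

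All mice were female, of C57BL/6J background and 12 weeks old, and total RNA of whole liver was measured on 1 Affymetrix MoGene 2.0 ST array per mouse. The groups were wild type on regular chow (WT_chow, n = 5), wild type on ursodeoxycholic acid (WT_UDCA, n = 6), KO-CYP2C70 on chow (KO_chow, n = 5) and KO-CYP2C70 on ursodeoxycholic acid (KO_UDCA, n = 6). Ursodeoxycholic acid (UDCA), a hydrophilic bile acid, made up 0.1% of the diet for 7 weeks from 5 weeks of age. Cyp2c70 is the mouse enzyme that makes muricholic acids, and the series title asks whether UDCA reverses the bile duct disease and fibrosis of mice without it. The labels used here do not describe how the gene was disrupted. Values are log2 of the array intensity, so a difference of 1 is a doubling. Levels of different genes on an array cannot be set against each other.

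The targeted gene separated the genotypes without overlap. Cyp2c70 was at 11.49 ± 0.14 (SD, n = 5) in WT_chow and 10.65 ± 0.12 (SD, n = 5) in KO_chow, 1.78-fold lower (limma, adjusted p = 3.2e-06), and remained measurable in every knockout. Array medians of intensity ran from 28.7 to 31.1. The KO_chow mice differed among themselves: on the first principal component, which held 26.7% of the variance, replicates 2 and 5 lay at 53.4 and 51.9 and the other 3 between 15.7 and 32.5, whereas no mouse of another group lay above 0. Counts are therefore also given without KO_chow replicates 2 and 5, a choice made after seeing the data. Hepatocyte genes, Alb among them, were strong in every mouse, and limma called 0 of 7 in KO_chow against WT_chow (0 at an unadjusted p below 0.05). Alb, at 13.02 in WT_chow, lay near the top of the intensity range, and 0 calls do not show an unchanged share of hepatocytes.

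On chow, knockout livers held more transcript of 6 of the 10 stellate cell markers than wild-type livers, and less of none. Cygb rose 2.32-fold, Tagln 2.13-fold, Pdgfrb 2.00-fold, Hgf 1.65-fold, Rgs5 1.43-fold and Des 1.36-fold (limma, adjusted p below 0.05 for each). Acta2, Reln, Lrat and Hand2 did not pass the test. Of all 24011 genes, 13.7% were called in this comparison, 7.69% higher and 6.03% lower. The median change of the 10 genes was 0.53 log2 units, beside -0.04 over all genes. Without KO_chow replicates 2 and 5, 4 of the 10 were called higher, beside 4.54% of all genes called in either direction. These were Cygb, Hgf, Pdgfrb and Reln, so Tagln, Rgs5 and Des lost their call and Reln gained one. In RNA of whole liver, more cells of a type and more RNA per cell cannot be told apart.

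**Figure D1:**
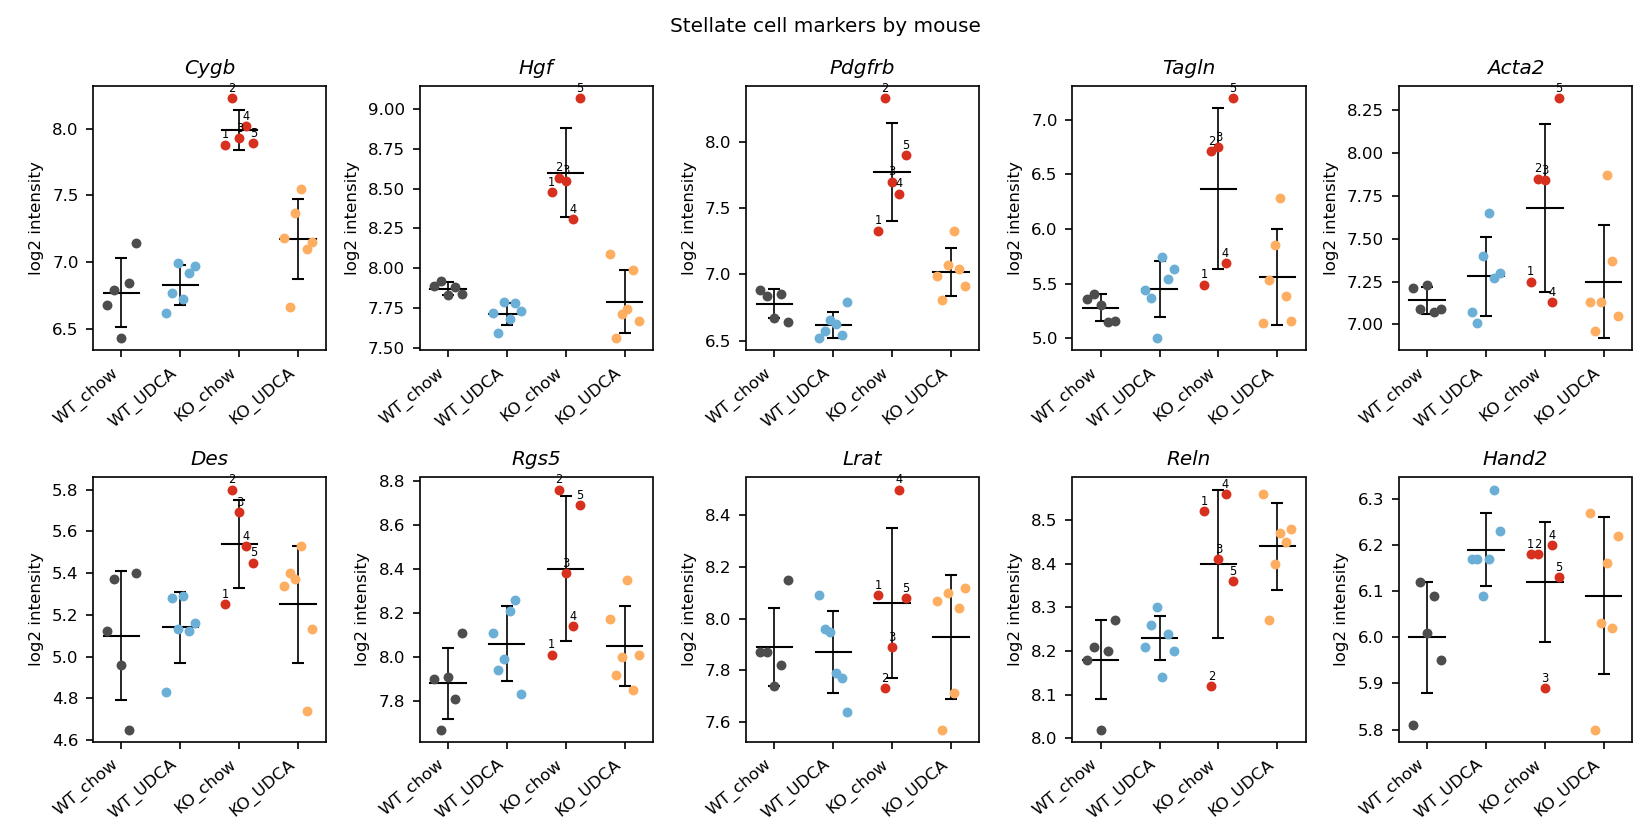
Log2 intensity of the 10 stellate cell markers (vertical axes, a separate scale per gene) in each mouse of the 4 groups (horizontal axis). Points are mice, numbers beside KO_chow points are replicates, and black lines and bars are group means and SD; Cygb, Hgf and Pdgfrb of KO_chow lie above every mouse of the other groups, whereas Tagln and Acta2 spread over the widest range in KO_chow.

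The markers that act in oxygen chemistry and in growth factor signalling, Cygb, Pdgfrb and Hgf, gave the clearest separation. Cygb encodes cytoglobin, a globin that in liver is typical of stellate cells. Its level was 6.68, 6.79, 6.43, 6.84 and 7.14 in the WT_chow mice and 7.88, 8.23, 7.93, 8.02 and 7.89 in the KO_chow mice. Every KO_chow mouse lay above every WT_chow mouse. The mean difference was 1.21 log2 units (SE 0.14, limma adjusted p = 2.04e-06). Cygb was also the most even of the rises within KO_chow, with an SD of 0.15.

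Pdgfrb encodes the receptor through which PDGF-B drives the division and migration of stellate cells. It stood at 6.88, 6.84, 6.67, 6.85 and 6.64 in WT_chow and at 7.33, 8.33, 7.70, 7.61 and 7.90 in KO_chow. These groups did not overlap either, and replicate 2 was the highest of the knockouts. The difference was 1.00 (SE 0.13, limma adjusted p = 1.42e-05).

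Hgf encodes hepatocyte growth factor, a mitogen for hepatocytes and bile duct cells that stellate cells secrete. Its level was 7.89, 7.92, 7.83, 7.88 and 7.84 in WT_chow, an SD of 0.04, and 8.48, 8.57, 8.55, 8.31 and 9.07 in KO_chow. All 5 knockouts lay above the wild types, with replicate 5 the highest. Hgf differed by 0.73 log2 units (SE 0.11, limma adjusted p = 0.000123). Groups without overlap were found for 9.43% of all genes in this comparison, and for 4 of the 10 markers, Tagln being the other.

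The contractile and cytoskeletal markers were less even. Tagln encodes transgelin, an actin-binding protein of smooth muscle and myofibroblasts. It was at 5.36, 5.40, 5.30, 5.15 and 5.16 in WT_chow and at 5.49, 6.71, 6.75, 5.69 and 7.20 in KO_chow. KO_chow replicates 1 and 4 lay just above the wild-type range, and replicates 2, 3 and 5 more than 1 log2 unit above it. The difference was 1.09 (SE 0.25, limma adjusted p = 0.00513), and it was 0.70 (adjusted p = 0.129) without KO_chow replicates 2 and 5. The SD of Tagln was 0.74 in KO_chow and 0.12 in WT_chow, while the fit uses 1 shared variance per gene.

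Acta2 encodes smooth muscle alpha-actin, the usual marker of activated stellate cells. Its level was 7.21, 7.09, 7.23, 7.07 and 7.09 in WT_chow and 7.25, 7.85, 7.84, 7.13 and 8.32 in KO_chow. As for Tagln, replicates 2, 3 and 5 were high and replicates 1 and 4 were not, and replicate 4 lay inside the wild-type range. The difference was 0.54 (SE 0.18, 95% confidence interval 0.16 to 0.92) with a limma adjusted p of 0.0554, above the threshold. Leaving out KO_chow replicate 1 or replicate 4 brought the adjusted p of Acta2 below the threshold, and leaving out replicates 2 and 5 left a difference of 0.27.

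Des encodes desmin, an intermediate filament protein of muscle and stellate cells. It was at 5.12, 5.37, 4.96, 4.65 and 5.40 in WT_chow and at 5.25, 5.80, 5.69, 5.53 and 5.45 in KO_chow, so the groups overlapped. The difference was 0.44 (SE 0.15, limma adjusted p = 0.049). Leaving out any of WT_chow replicates 1, 3 and 4 or KO_chow replicates 2, 3, 4 and 5 ended the call of Des, as did 7 other settings, with adjusted p between 0.0502 and 0.254. Des was the only one of the 10 that fell below the median of an array, on 3 of 22 arrays.

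Rgs5 encodes a GTPase-activating protein that dampens G protein signalling and is abundant in pericytes. It stood at 7.90, 7.67, 7.91, 7.81 and 8.11 in WT_chow and at 8.01, 8.76, 8.38, 8.14 and 8.69 in KO_chow. KO_chow replicate 1 lay inside the wild-type range. The difference was 0.52 (SE 0.13, limma adjusted p = 0.0103), and without KO_chow replicates 2 and 5 it was 0.30 (adjusted p = 0.227).

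The smallest differences on chow were those of Lrat, Reln and Hand2. Lrat encodes lecithin retinol acyltransferase, which esterifies retinol for storage. It was at 7.87, 7.87, 7.74, 7.82 and 8.15 in WT_chow and at 8.09, 7.73, 7.89, 8.50 and 8.08 in KO_chow, with overlapping groups. The difference of 0.17 had a 95% confidence interval of -0.11 to 0.44 and did not pass the test (limma, adjusted p = 0.474). The lowest Lrat of the KO_chow mice was in replicate 2, which had the highest Pdgfrb, and the highest was in replicate 4, which had the lowest Acta2.

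Reln encodes reelin, a secreted glycoprotein that stellate cells make. It was at 8.18, 8.21, 8.02, 8.20 and 8.27 in WT_chow and at 8.52, 8.12, 8.41, 8.56 and 8.36 in KO_chow. Replicate 2 alone lay within the wild-type range. The difference of 0.22 (SE 0.08) missed the threshold (limma, adjusted p = 0.0772), and without KO_chow replicates 2 and 5 it was 0.32 (adjusted p = 0.0217).

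Hand2 encodes a transcription factor of the stellate lineage. Its level was 5.81, 6.12, 6.01, 6.09 and 5.95 in WT_chow and 6.18, 6.18, 5.89, 6.20 and 6.13 in KO_chow. The difference of 0.12 had a 95% confidence interval of -0.06 to 0.31 (limma, adjusted p = 0.44), which leaves room for a change of either sign.

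The heat map sets the mice side by side. The mean of the 10 genes relative to WT_chow was 0.36, 0.74, 0.61, 0.48 and 0.82 log2 units in KO_chow replicates 1 to 5. The lowest was in replicate 1 and the highest in replicate 5, and Cygb was raised in all 5.

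**Figure D2:**
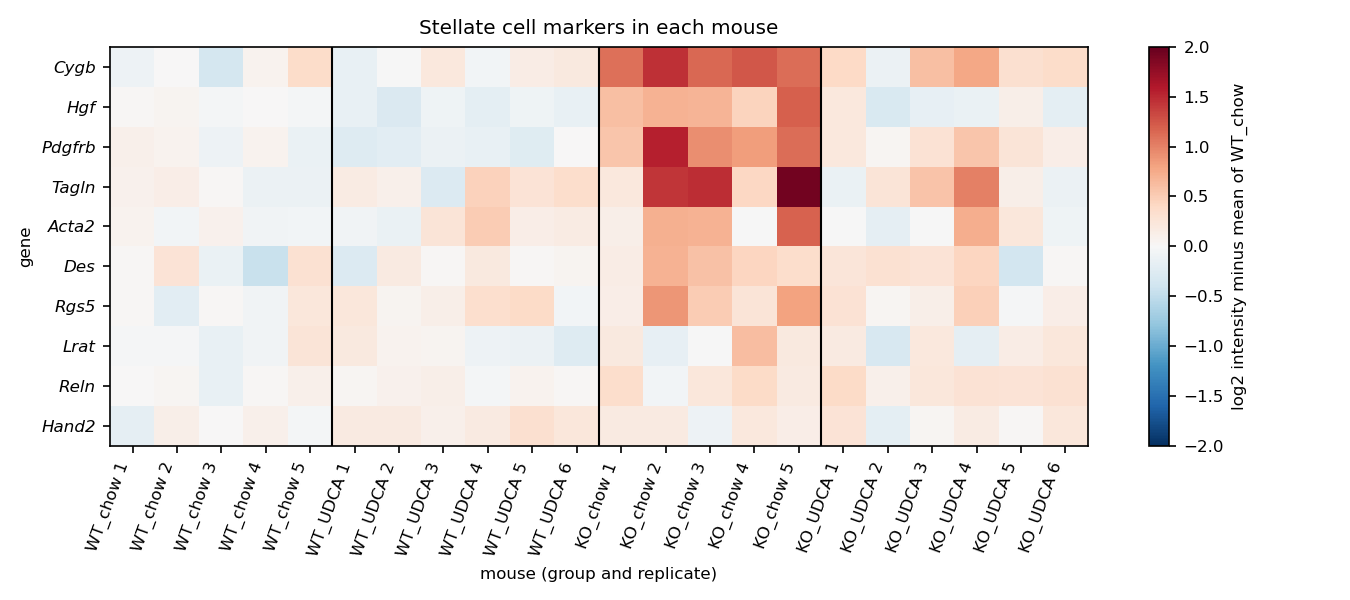
Log2 intensity of each stellate cell marker (rows) in each mouse (columns) minus the WT_chow mean of that gene, red higher and blue lower. Cygb, Hgf and Pdgfrb are red in all 5 KO_chow mice, Tagln and Acta2 mainly in KO_chow replicates 2, 3 and 5, and Hand2 stays pale.

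Promoters are shown for Acta2 and Lrat, a contractile and a retinoid marker, because serum response factor drives smooth muscle genes through the CArG box. Of the 10 genes, 7 had an entry in the RefSeq promoter table of GRCm38.p6; Cygb, Pdgfrb and Tagln had none. The window was the 250 bases before the transcription start, read on both strands, and the motif was the CArG box with at most 1 G or C in its core. It was held by 2823 of 32851 promoters (8.59%). Acta2 had 2 matches, 84 to 75 and 34 to 25 bases before the start, Lrat had 1 match, 223 to 214 bases before, and Reln, Des, Hgf, Rgs5 and Hand2 had 0. The strict box without any G or C in the core, held by 1.47% of promoters, was found in 0 of the 7. Capitals mark the matches in the sequences, read 5′ to 3′ on the minus strand, of chr19:34255374-34255623 for Acta2 and chr3:82903975-82904224 for Lrat.
Acta2: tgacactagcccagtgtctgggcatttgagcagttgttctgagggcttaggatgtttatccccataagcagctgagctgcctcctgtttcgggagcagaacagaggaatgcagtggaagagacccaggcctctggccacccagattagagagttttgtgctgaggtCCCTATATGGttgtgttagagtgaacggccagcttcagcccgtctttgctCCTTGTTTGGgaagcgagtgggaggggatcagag
Lrat: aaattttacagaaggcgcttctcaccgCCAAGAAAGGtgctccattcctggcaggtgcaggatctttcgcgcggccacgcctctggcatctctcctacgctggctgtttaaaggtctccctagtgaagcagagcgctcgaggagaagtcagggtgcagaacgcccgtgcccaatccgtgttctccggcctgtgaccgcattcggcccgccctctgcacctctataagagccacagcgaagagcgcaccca
A match of letters is a description, and binding was not measured here.

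UDCA lowered 4 of the 10 markers in knockout livers: Cygb 1.77-fold, Tagln 1.76-fold, Hgf 1.75-fold and Pdgfrb 1.68-fold. Across all genes, 11.2% were called in KO_UDCA against KO_chow, 6.22% lower and 5.03% higher. The median change of the 10 was -0.39, beside 0.03 over all genes. Without KO_chow replicates 2 and 5 the count was 3 of 10, beside 2.8% of all genes. This comparison shares the KO_chow mice with the one above, so low values on UDCA and high values in KO_chow rest on the same arrays.

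Hgf in KO_UDCA lay between 7.56 and 8.09 (median 7.72), below the lowest KO_chow mouse at 8.31. It fell by 0.80 log2 units (SE 0.11, limma adjusted p = 3.31e-05). Cygb in KO_UDCA ran from 6.66 to 7.55 (median 7.17), below the lowest KO_chow value of 7.88, and fell by 0.82 (SE 0.13, limma adjusted p = 0.00022). Both groups were separate for each of these genes.

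Pdgfrb in KO_UDCA ran from 6.81 to 7.33 (median 7.01) and fell by 0.75 (SE 0.12, limma adjusted p = 0.000365), with its highest mouse just below the KO_chow minimum of 7.33 in the unrounded values. Groups without overlap made up 5.89% of genes in this comparison, and 3 of the 10 markers. Tagln in KO_UDCA ran from 5.14 to 6.28 (median 5.46), and the groups overlapped. It fell by 0.81 (SE 0.24, limma adjusted p = 0.0314), and the call was lost without any 1 of KO_chow replicates 2, 3 and 5 or KO_UDCA replicates 1, 2, 5 and 6. Without KO_chow replicates 2 and 5 together Tagln differed by -0.42 (adjusted p = 0.44).

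The other 6 did not pass the test under UDCA. Acta2 ran from 6.96 to 7.87 (median 7.13) in KO_UDCA, and KO_UDCA replicate 4 had the highest level of both Acta2, at 7.87, and Tagln, at 6.28. Its difference from KO_chow was -0.43 (limma, adjusted p = 0.133), and the call was gained without KO_chow replicate 4 or KO_UDCA replicate 4. Leaving out KO_chow replicate 5 reduced the difference of Acta2 to -0.26 (adjusted p = 0.388), and without KO_chow replicates 2 and 5 it was -0.15 (adjusted p = 0.744). Rgs5 ran from 7.85 to 8.35 (median 8.01) and differed by -0.35 (adjusted p = 0.0832). Its call was gained without KO_chow replicate 1, KO_chow replicate 4 or KO_UDCA replicate 4, and without KO_chow replicates 2 and 5 Rgs5 differed by -0.13 (adjusted p = 0.688).

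Des in KO_UDCA ran from 4.74 to 5.53 (median 5.36) and differed from KO_chow by -0.29 (limma, adjusted p = 0.214). Lrat, Reln and Hand2 stood near their KO_chow level. Lrat ran from 7.57 to 8.12 (median 8.05), a difference of -0.12 with a 95% confidence interval of -0.38 to 0.14. Reln ran from 8.27 to 8.56 (median 8.46) and differed by 0.04 (-0.12 to 0.20), and Hand2 ran from 5.80 to 6.27 (median 6.10) and differed by -0.03.

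**Figure D3:**
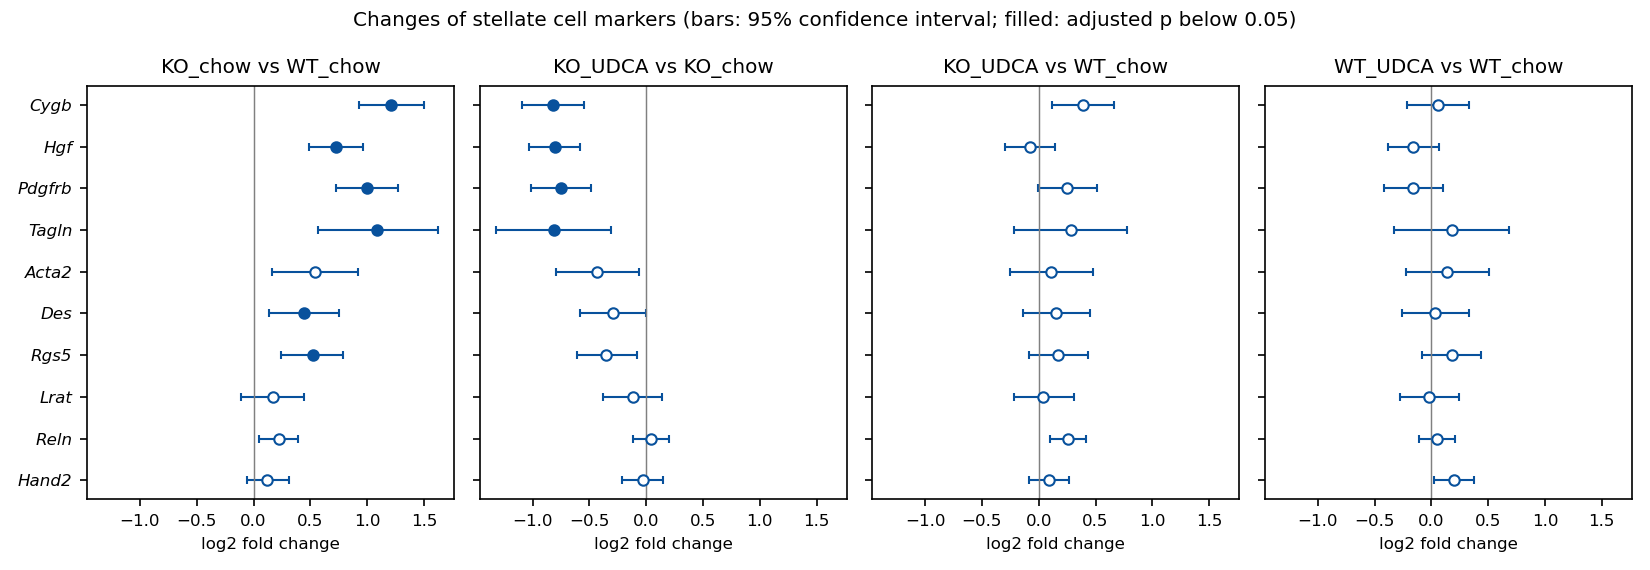
Log2 fold change of each stellate cell marker (horizontal axis) in 4 comparisons (panels), with bars for the 95% confidence interval and filled points for a limma adjusted p below 0.05. In KO_chow against WT_chow 6 points are filled to the right of 0, in KO_UDCA against KO_chow 4 to the left, and in the other panels none.

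Against either wild-type group, treated knockouts had no marker past the threshold. In KO_UDCA against WT_UDCA, limma called 0 of the 10 (0.0167% of all genes were called), and 3 had an unadjusted p below 0.05, beside 5.45% of all genes. These were Pdgfrb, Reln and Cygb, all higher in the knockouts. Pdgfrb ran from 6.52 to 6.79 in WT_UDCA, below every KO_UDCA mouse, a difference of 0.41 (SE 0.12, limma adjusted p = 0.648), and 0.292% of all genes had such groups. Cygb differed by 0.34 (adjusted p = 0.835) and ran from 6.62 to 6.99 in WT_UDCA.

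In KO_UDCA against WT_chow, limma called 0 of the 10 (0.025% of all genes), and 2 had an unadjusted p below 0.05, beside 5.62% of genes. Cygb differed by 0.39 with a 95% confidence interval of 0.12 to 0.66, and Reln by 0.26 with an interval of 0.10 to 0.42 (limma adjusted p of 0.649 and 0.561). For Hgf the difference was -0.08 (adjusted p = 0.982). A p above the threshold does not show that treated knockouts and wild types had equal levels.

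UDCA in wild-type mice left the 10 markers without a call: limma called 0 of 10 in WT_UDCA against WT_chow (0% of all genes), with 1 at an unadjusted p below 0.05, beside 5.57% of genes. That gene was Hand2, which ran from 6.09 to 6.32 in WT_UDCA and differed by 0.20 (limma adjusted p = 0.875). Hgf ran from 7.59 to 7.79 in WT_UDCA and lay below every WT_chow mouse, a difference of -0.16 (adjusted p = 0.946), and 0.65% of genes had groups without overlap here. The remaining WT_UDCA ranges were 5.00 to 5.74 for Tagln, 7.01 to 7.65 for Acta2, 4.83 to 5.29 for Des, 7.83 to 8.26 for Rgs5, 7.64 to 8.09 for Lrat and 8.14 to 8.30 for Reln.

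The difference in the UDCA effect between genotypes was tested as an interaction. It was called for 2 of the 10, beside 2.67% of all genes (2.07% lower): Cygb at -0.88 log2 units (SE 0.19, limma adjusted p = 0.0117) and Hgf at -0.65 (SE 0.15, adjusted p = 0.0239). Pdgfrb at -0.59 (adjusted p = 0.0743), Tagln at -0.99 (adjusted p = 0.131), Rgs5 at -0.52 (adjusted p = 0.124) and Acta2 at -0.57 (adjusted p = 0.251) did not pass. Without KO_chow replicates 2 and 5, neither Cygb (-0.83, adjusted p = 0.0553) nor Hgf (-0.50, adjusted p = 0.0875) passed, beside 0.862% of all genes called. The count was 5 without KO_chow replicate 1 and 4 without KO_chow replicate 4, beside 4.28% and 5.08% of all genes.

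In order of group means, KO_chow was highest for 8 of the 10, the exceptions being Reln, highest in KO_UDCA, and Hand2, highest in WT_UDCA. For Cygb, Pdgfrb and Tagln the next group was KO_UDCA, and for Hgf it was WT_chow. For these 4 genes, no difference between neighbours among the 3 lower groups passed the test (limma adjusted p between 0.835 and 0.997).

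Reln, which encodes reelin, had nearly the same mean in KO_chow (8.40) and KO_UDCA (8.44). With the genotypes compared over both diets, a contrast chosen after the values were seen, Reln was higher in knockouts by 0.22 log2 units (SE 0.06, limma adjusted p = 0.0154), beside 8.47% of all genes called. Knockouts ran from 8.12 to 8.56 and wild types from 8.02 to 8.30. Cygb (0.78, adjusted p = 7.64e-06), Pdgfrb (0.70, adjusted p = 1.49e-05), Hgf (0.40, adjusted p = 0.00162) and Tagln (0.60, adjusted p = 0.0308) were also called, whereas Des, Rgs5, Acta2, Lrat and Hand2 were not. The genotype difference of Reln was 0.22 on chow and 0.21 under UDCA. For Hgf and Tagln it was 0.73 and 1.09 on chow but 0.08 and 0.10 under UDCA, and for Cygb and Pdgfrb 1.21 and 1.00 but 0.34 and 0.41. For these 4 genes the mean over diets thus does not describe a difference of like size on both diets. Reln differed by 0.04 between the knockout diets, with a 95% confidence interval of -0.12 to 0.20.

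Other genes of the pathways of these markers were taken from lists, chosen with earlier results of these data in view. List counts without KO_chow replicates 2 and 5 stand beside smaller shares of all genes called than counts with all arrays. These shares were 4.54% in KO_chow against WT_chow and 2.8% in KO_UDCA against KO_chow. Of 15 further stellate cell genes, 4 were higher and 5 lower in KO_chow (4 and 5 without KO_chow replicates 2 and 5), with a median of -0.12. Pdgfra, the alpha PDGF receptor, rose 2.06-fold (limma, adjusted p = 1.57e-06) and Adamtsl2, a secreted matrix protein, 2.27-fold (adjusted p = 1.81e-07). Hhip, which binds hedgehog ligands, fell 2.76-fold (adjusted p = 1.93e-06), to below the array median in all 5 KO_chow mice. Colec10, a collectin, fell 1.92-fold (adjusted p = 8.55e-06). Under UDCA these moved the other way, Pdgfra and Adamtsl2 being 1.53-fold and 1.61-fold lower and Hhip and Colec10 1.95-fold and 1.67-fold higher, with 6 of 15 higher and 3 lower (4 and 3 without KO_chow replicates 2 and 5). Stellate cell genes outside the 10 thus went both ways.

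Around Pdgfrb, all 5 other genes of the PDGF family were higher in KO_chow (4 without KO_chow replicates 2 and 5) and all 5 lower under UDCA (4). The ligand Pdgfb rose 1.74-fold (limma, adjusted p = 1.02e-05) and the ligand Pdgfd 2.00-fold (adjusted p = 0.000644). Pdgfb lay below the array median in every mouse outside KO_chow. The UDCA call of Pdgfd was lost without KO_chow replicate 1 or KO_UDCA replicate 2.

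Around Hgf, 6 of 10 genes were higher and 2 lower in KO_chow, and 2 higher and 6 lower under UDCA (5 and 2, and 2 and 4, without KO_chow replicates 2 and 5). Those that rose included proteases: Plat, tissue plasminogen activator, rose 3.71-fold (limma, adjusted p = 9.11e-06) and St14, matriptase, 2.30-fold (adjusted p = 1.18e-06). The 2 that fell were Hpn, hepsin, at -0.47 (adjusted p = 0.00071), and Hgfac, the HGF activator, at -0.43 (adjusted p = 0.000991). Met, the receptor of HGF, was not called, at 9.12 ± 0.05 (SD, n = 5) in WT_chow and 9.20 ± 0.06 (SD, n = 5) in KO_chow.

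Around Acta2 and Tagln, 8 of 11 targets and regulators of serum response factor rose in KO_chow and 7 fell under UDCA (6 and 5 without KO_chow replicates 2 and 5), with a median change of 0.85 in KO_chow. Flna, filamin A, rose 2.38-fold (limma, adjusted p = 1.97e-05), and Vcl, vinculin, rose 2.20-fold (adjusted p = 0.000319). Per mouse, the mean of the list relative to WT_chow was 0.35, 1.10, 0.72, 0.32 and 1.09 in KO_chow replicates 1 to 5, again highest in 2, 3 and 5. These mice were also highest on the first principal component over all genes, so the order is not particular to this list. The mean of the genes around Hgf was highest in the same mice, whereas those of the PDGF family and of the portal fibroblast genes were not. Of the 15 genes of smooth muscle and pericytes, 2 rose (1 without KO_chow replicates 2 and 5). These were Mcam, with a mean of 5.72 in WT_chow and 6.31 in KO_chow, and Smtn, which lost its call without those replicates. The median of the 15 was -0.05, and 6 of them had a positive change. Myh11, smooth muscle myosin, was not called, at -0.29 (adjusted p = 0.0934). Among these 15, Actg2, Lmod1 and Myocd lay below the array median in every mouse and Cnn1 in most. A change in such dim genes is hard to see. Under UDCA 3 of these 15 fell (0 without KO_chow replicates 2 and 5).

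Around Lrat, 4 of 24 genes of retinoid handling were higher and 4 lower in KO_chow (2 and 0 without KO_chow replicates 2 and 5), with a median of -0.01. Dhrs9, a retinol dehydrogenase, rose 6.25-fold (limma, adjusted p = 3.13e-07), and Lpl, lipoprotein lipase, rose 4.02-fold (adjusted p = 0.000871). Under UDCA 4 were higher and 3 lower (0 and 1). Dhrs9 fell 3.53-fold (adjusted p = 3.43e-05). Of the reelin receptors and their partners, 1 of 4 was higher and 1 lower in KO_chow (1 and 0 without KO_chow replicates 2 and 5), and likewise 1 and 1 under UDCA (0 and 0). The reelin receptor gene Vldlr fell 2.00-fold (adjusted p = 0.00311), but not without KO_chow replicates 2 and 5 (adjusted p = 0.0604). Of 8 relatives of Rgs5, 2 were higher and 2 lower (1 and 1), and of 3 other globins limma called 0, with 0 at an unadjusted p below 0.05. Under UDCA, 3 of the 8 Rgs genes were higher and 2 lower (1 and 0), and no globin was called, with 1 at an unadjusted p below 0.05.

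**Figure D4:**
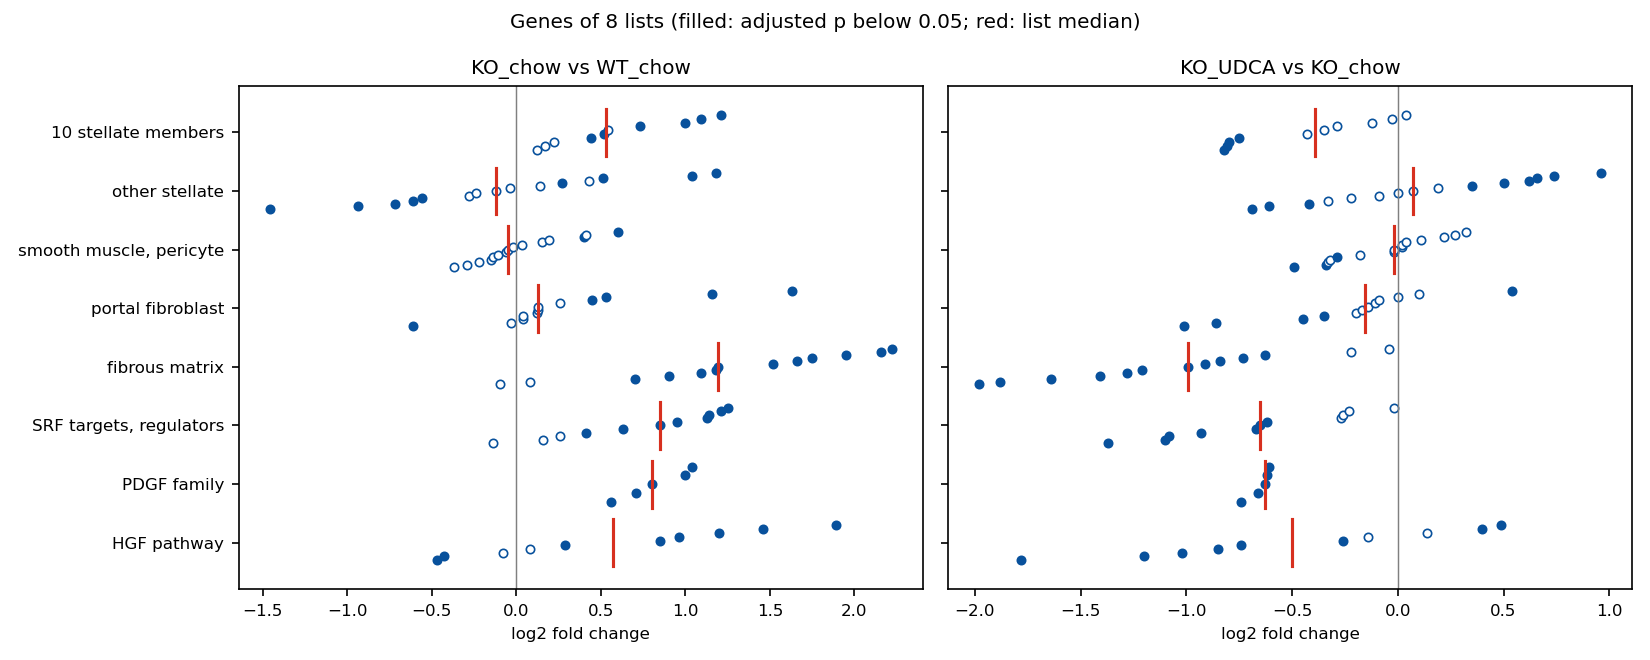
Log2 fold change (horizontal axis) of every gene of 8 lists (rows) in KO_chow against WT_chow (left) and KO_UDCA against KO_chow (right); filled points have a limma adjusted p below 0.05 and red lines are list medians. Fibrous matrix genes lie farthest right in the left panel, with a median of 1.19, and the other stellate cell genes lie on both sides of 0.

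Matrix genes of myofibroblasts, which stellate cells are not alone in making, rose in 11 of 13 cases in KO_chow and fell in 11 of 13 under UDCA (11 and 11 without KO_chow replicates 2 and 5). Col1a1, the alpha-1 chain of type I collagen, rose 4.47-fold (limma, adjusted p = 3.48e-08) and fell 3.69-fold under UDCA (adjusted p = 1.61e-07). Timp1, an inhibitor of matrix proteases, rose 4.65-fold (adjusted p = 1.81e-07).

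Markers of other liver cells moved in the same mice. Of 12 portal fibroblast genes, 4 rose and 1 fell in KO_chow (3 and 0 without KO_chow replicates 2 and 5), with Dpt, dermatopontin, 3.09-fold higher (limma, adjusted p = 4.25e-07). Their summed level ran from 8.96 to 9.06 on the log2 scale in WT_chow, 8.97 to 9.04 in WT_UDCA, 9.40 to 9.72 in KO_chow and 8.97 to 9.37 in KO_UDCA. The summed level of the 10 stellate cell markers ran from 10.47 to 10.66 in WT_chow, 10.53 to 10.62 in WT_UDCA, 10.94 to 11.35 in KO_chow and 10.46 to 10.88 in KO_UDCA. That of the smooth muscle and pericyte genes ran from 9.84 to 10.01 in WT_chow and from 9.90 to 10.13 in KO_chow, overlapping. Such sums add intensities before the log, so brighter genes weigh more in them.

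All 6 bile duct cell genes rose in KO_chow (5 without KO_chow replicates 2 and 5), with a summed level of 7.45 to 7.62 in WT_chow, 7.33 to 7.66 in WT_UDCA, 8.82 to 9.91 in KO_chow and 7.52 to 8.13 in KO_UDCA. Tspan8, a tetraspanin, rose 9.84-fold (limma, adjusted p = 4.89e-09). Of 7 Kupffer cell genes 0 rose and 4 fell (3 without KO_chow replicates 2 and 5), Cd163, a scavenger receptor, by 3.85-fold (adjusted p = 1.67e-06). Of 7 sinusoidal endothelial genes 1 rose and 1 fell (0 and 0), and of 5 mesothelial genes 1 rose, the keratin gene Krt8, which bile duct cells and hepatocytes also make. The part of these cells in the changes of the stellate cell markers was not tested.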

How the data were processed

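Liver RNA of 22 mice was measured on 22 arrays. Per the labels, the deposited intensity of each gene is an unlogged RMA summary from a probe-level model. RMA is named, with no version, in the submitters' processing notes. For the probe mapping and the build, the labels and file headers used here name none. Platform annotation gave 24015 of 24973 rows 1 gene symbol and 958 none, and 24011 genes remained after repeated symbols were reduced to the row with the highest mean. Intensities, from 1.66 to 10284, were converted to log2 without a pseudocount or filter. In limma 3.58.1 (R 4.3.3), 1 model with 4 group means took in all 22 arrays, and p-values are two-sided, Benjamini-Hochberg adjusted over 24011 genes, called below 0.05. The limma fit was tested on simulated data for KO_chow against WT_chow.

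The labels tie each array to 1 mouse but do not state separate cages or litters. Each p-value sets a difference against the spread between these mice, taken as 1 variance per gene shared by the 4 groups. Replicates were numbered in record order and pair nothing. The number of arrays limits the precision. Promoters were read from the RefSeq table of GRCm38.p6.

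The 10 genes and the 16 other lists (162 genes, 4 without a row) were chosen with earlier results of these data known. Of each list, at most 4 called genes with the largest changes could be named, plus Col1a1 and Cyp2c70. Alb, Met, Myh11, Hpn and Hgfac lie outside this rule and were named after their values were seen. The alternatives were other normalization and centring, an added 16 before the log, a filter on dim genes (above the array median in at least 5 arrays), array weights, robust variances, fits of the compared groups only, the sample number set, and each array left out in turn.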

Additional observations from a re-analysis of the deposited data

Results flagged for a closer look

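The 10 stellate cell markers were screened in 4 groups each, 40 groups in all, for a mouse far from the rest of its group. About 1 in 20 such groups would be marked by chance, and 2 were. Des in WT_UDCA replicate 1 was at 4.83, with the nearest mouse at 5.12 and the highest at 5.29. Hand2 in KO_chow replicate 3 was at 5.89, with the nearest at 6.13 and the highest at 6.20.

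The UDCA effect differed between knockout and wild type for Cygb by -0.88 log2 units (limma interaction, adjusted p = 0.0117) and for Hgf by -0.65 (adjusted p = 0.0239). Cygb fell in knockouts on UDCA and differed by 0.06 between the wild-type groups, and Hgf differed by -0.16 there.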

How the results depend on the processing

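No paired analysis was possible because the labels give the groups no shared replicate numbers. With 1 array left out, the number of the 10 markers called was 5 to 7 in KO_chow against WT_chow (6 with all arrays), 3 to 6 in KO_UDCA against KO_chow (4 with all arrays) and 2 to 5 for the interaction (2 with all arrays), and 0 in the other 3 comparisons. These counts take in markers not called with all arrays, such as Acta2. Without KO_chow replicates 2 and 5, the interaction count was 0. With sample numbers up to 15 only, which drops the second pass of the titles' numbers through the groups (16 to 22, with 1 KO_chow mouse), 3 markers were called in KO_chow against WT_chow and 0 for the interaction. Those 3 were Cygb, Hgf and Pdgfrb, which were called in KO_chow against WT_chow and in KO_UDCA against KO_chow under every alternative run. With a term for that pass, Des was lost (adjusted p = 0.0636) and Acta2 gained (0.0428). Rgs5 in KO_chow against WT_chow was lost with numbers up to 15 (0.0901), as was Tagln (0.14). No called change of a marker turned its sign. Over all genes, calls in KO_chow against WT_chow fell from 3295 to 2008 when only these groups were fitted, to 1089 without KO_chow replicates 2 and 5 and to 1055 with numbers up to 15. In KO_UDCA against KO_chow they fell from 2701 to 1454, 673 and 866. For the interaction they fell from 642 to 207 and 38, the last 2 settings having fewer arrays. With 1 array left out, calls over all genes ran from 2219 to 3849 in KO_chow against WT_chow. They ran from 1632 to 3201 in KO_UDCA against KO_chow and from 301 to 1219 for the interaction.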
